A study of Mus musculus with 26 samples.

Results

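Retinoic acid was added to cultures of mouse CD4+ T cells that were turning into induced regulatory T (iTreg) cells under TGFb and vitamin C. The 2 libraries with all 3 agents (RA+VC cultures) were set against the 2 libraries with TGFb and vitamin C (VC cultures). These 4 libraries are part of 26 mRNA libraries in the series. All 6 groups used here came from Foxp3-eGFP reporter mice on the C57BL/6 background, 5 to 6 weeks old, with spleen and lymph nodes as the tissue, and the reporter marks cells that express Foxp3, the transcription factor of Treg cells. The other groups were RA cultures (TGFb plus retinoic acid), TGFb cultures (TGFb alone), Th0 cells activated through CD3 and CD28, and uncultured naive CD4+ cells sorted as eGFP-, CD25- and CD44 low, with a further naive-cell marker, with 2 libraries each. All 4 kinds of iTreg culture held TGFb, and the labels give no doses, no days of culture and no sort for Foxp3 after culture. Whether the replicates are separate animals or cultures is not stated. The p-values set group differences against the spread between replicates of all 6 groups, and they speak only for these libraries.

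Retinoic acid is made from vitamin A and acts inside the cell, where it binds the nuclear receptors RAR, which pair with RXR on DNA and switch target genes. In the gut it is produced by dendritic and stromal cells and gives T cells the receptors that lead them to the intestine. Together with TGFb it is known to favour Foxp3-positive cells over inflammatory T helper cells, and CYP26 enzymes break it down, so their genes serve as a readout of exposure. Vitamin C is a cofactor of TET enzymes, which oxidise methylated cytosine in DNA.

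Total counts were 10397148 and 11640223 in the RA+VC libraries and 10587517 and 10830150 in the VC libraries, and all 12 libraries lay between 9647669 and 11640223. Of 21761 genes in the table, 11287 passed the filter on low counts and were tested. Levels are CPM (each count as a share of its TMM-scaled library total, on the usual CPM scale), changes are log2 fold changes ± SE, and a gene is called when its adjusted p is under 0.05 by quasi-likelihood F test (edgeR, Benjamini-Hochberg adjustment). The 14 CD4 T cell markers summed to 6862 and 7142 CPM in RA+VC cultures and 7153 and 7203 CPM in VC cultures. Csf1r of macrophages, Ncr1 of NK cells and Rag1 of thymocytes had 0 counts in all 4 libraries, while other markers of these classes were present, and their sums are given beside the results. Because these are bulk cultures, fewer cells of a type and less RNA per cell cannot be told apart.

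Adding retinoic acid to VC cultures changed 1706 of 11287 genes, 15.1% of those tested. Of these, 656 rose (5.81%) and 1050 fell (9.3%), and the median over all tested genes was 0.01. Every count of list members given below is to be read beside these shares. Changes of at least 1 on the log2 scale were made by 171 genes that rose and 394 that fell. The 2 groups did not overlap at any called gene, and did not overlap at 55.6% of all tested genes. The count fell to 819 without VC replicate 1, to 1014 without RA+VC replicate 2 and to 1115 without RA+VC replicate 1, where the lone remaining library is assumed to vary like the other groups.

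**Figure D1:**
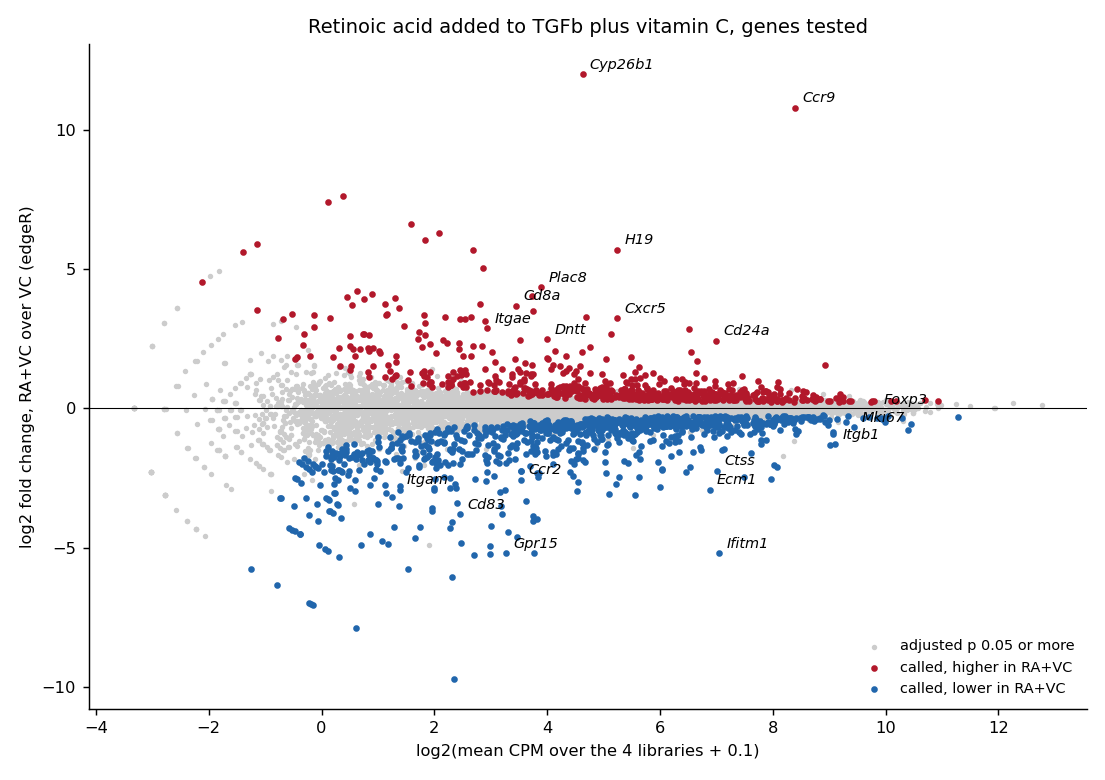
Each point is a tested gene, with log2 of its mean CPM over the RA+VC and VC libraries plus 0.1 on the x axis and the log2 fold change of RA+VC over VC on the y axis. Ccr9 lies at 10.79, the height of Cyp26b1 is a fitted value that depends on the prior count because VC cultures had 0 counts (the bound is at least 355-fold), and Foxp3 lies on the zero line at -0.04.

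Among genes of retinoid handling, Cyp26b1 and Dhrs3 rose and Rarg, Rxra and Fabp5 fell. Cyp26b1, the cytochrome P450 that breaks down retinoic acid, had 54.8 and 43.6 CPM in RA+VC cultures and no counts in VC cultures. The summed counts were 1101 and 0, so the gene was at least 355-fold higher with retinoic acid, taking 3 counts over the VC group as the floor (adjusted p = 2.1e-08, edgeR). RA cultures had 59.4 and 45.1 CPM and TGFb cultures 0, so its high level went with retinoic acid in both media. Dhrs3, which turns retinal back into retinol, had 7.42 and 5.06 CPM in RA+VC cultures against 0.652 and 0.54 CPM in VC cultures (3.36 ± 0.35, adjusted p = 7.25e-06, edgeR).

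Rarg, one of the RAR genes, had 29.7 and 27.4 CPM in RA+VC cultures and 76.3 and 69.8 CPM in VC cultures, so it fell by 1.36 ± 0.11 on the log2 scale (adjusted p = 5.22e-07, edgeR). Rxra, the partner receptor, fell by 1.04 ± 0.14, and Fabp5, a carrier that brings retinoic acid to another nuclear receptor, fell by 0.79 ± 0.14. Rara did not pass (93.8 and 83.7 CPM against 105 and 102 CPM, adjusted p = 0.144, edgeR). Rarb was below the filter, with 6 and 6 counts in RA+VC cultures and 4 and 2 in VC cultures. Stra6, the retinol uptake receptor, was also below it, with 7 and 14 counts in RA+VC cultures and 0 and 0 in VC cultures. The enzymes that make retinoic acid were nearly silent: Aldh1a1, Aldh1a2 and Aldh1a3 together had 0 counts in RA+VC cultures and 2 in VC cultures. In all, 2 of 12 tested members of the retinoid metabolism list rose, 3 fell and 7 did not pass.

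Of 17 tested genes known to answer retinoic acid, 6 rose, 4 fell and 7 did not pass, with a list median of 0.29. Hic1, a transcriptional repressor that retinoic acid induces in intestinal T cells, had 26.8 and 22.4 CPM in RA+VC cultures and 2.33 and 1.98 CPM in VC cultures (3.51 ± 0.25, adjusted p = 1.76e-07, edgeR). Cd38, an ectoenzyme that consumes NAD, rose by 0.79 ± 0.14. P2rx7, an ATP-gated channel, was called at 0.53 ± 0.16 (adjusted p = 0.0456, edgeR), but its adjusted p lay between 0.106 and 0.235 when any 1 of the 4 libraries was left out. Ecm1, an extracellular matrix protein gene, fell in the same cultures: 29.0 and 25.9 CPM in RA+VC cultures and 208 and 207 CPM in VC cultures (-2.92 ± 0.11, adjusted p = 2.15e-10, edgeR).

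The gut-homing genes split. Ccr9, the receptor for the small-intestinal chemokine CCL25, had 651 and 692 CPM in RA+VC cultures and 0.465 and 0.27 CPM in VC cultures, a 1776-fold rise (10.79 ± 0.21, adjusted p = 3.26e-14, edgeR). RA cultures had 399 and 366 CPM, TGFb cultures 0.182 and 0.285 CPM and naive cells 11.56 and 13.7 CPM. Both RA+VC libraries were thus above every other library. Itgae, the CD103 chain that pairs with integrin beta 7 and binds E-cadherin on gut epithelium, had 14.8 and 11.7 CPM in RA+VC cultures and 2.14 and 1.44 CPM in VC cultures (2.88 ± 0.32, adjusted p = 1.55e-05, edgeR). Gpr15, a receptor that leads T cells to the large intestine, went down: 0.666 and 0.332 CPM in RA+VC cultures and 22.3 and 14.8 CPM in VC cultures (-5.21 ± 0.48, adjusted p = 7.65e-06, edgeR). VC cultures were its highest group of the 6.

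The 2 chains of the gut integrin alpha 4 beta 7 did not pass without a replicate block, and both passed with one (adjusted p = 0.00237 for Itga4 and 0.0264 for Itgb7, edgeR). Itga4 had 659 and 452 CPM in RA+VC cultures and 451 and 334 CPM in VC cultures (0.50 ± 0.25, adjusted p = 0.238, edgeR), and Itgb7 had 993 and 915 CPM against 1173 and 1065 CPM (-0.23 ± 0.08, adjusted p = 0.0755, edgeR). Without vitamin C, Itga4 was called higher in RA than in TGFb cultures (1.14 ± 0.25, adjusted p = 0.0161, edgeR), while the difference of the 2 effects did not pass (-0.64, adjusted p = 1). Itgb1, the beta 1 chain, fell to 336 and 304 CPM in RA+VC cultures against 815 and 740 CPM in VC cultures. Gpr183, an oxysterol receptor that positions lymphocytes, fell by 1.01 ± 0.15. Of the 10 gut and mucosal homing genes tested, 2 rose, 4 fell and 4 did not pass.

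**Figure D2:**
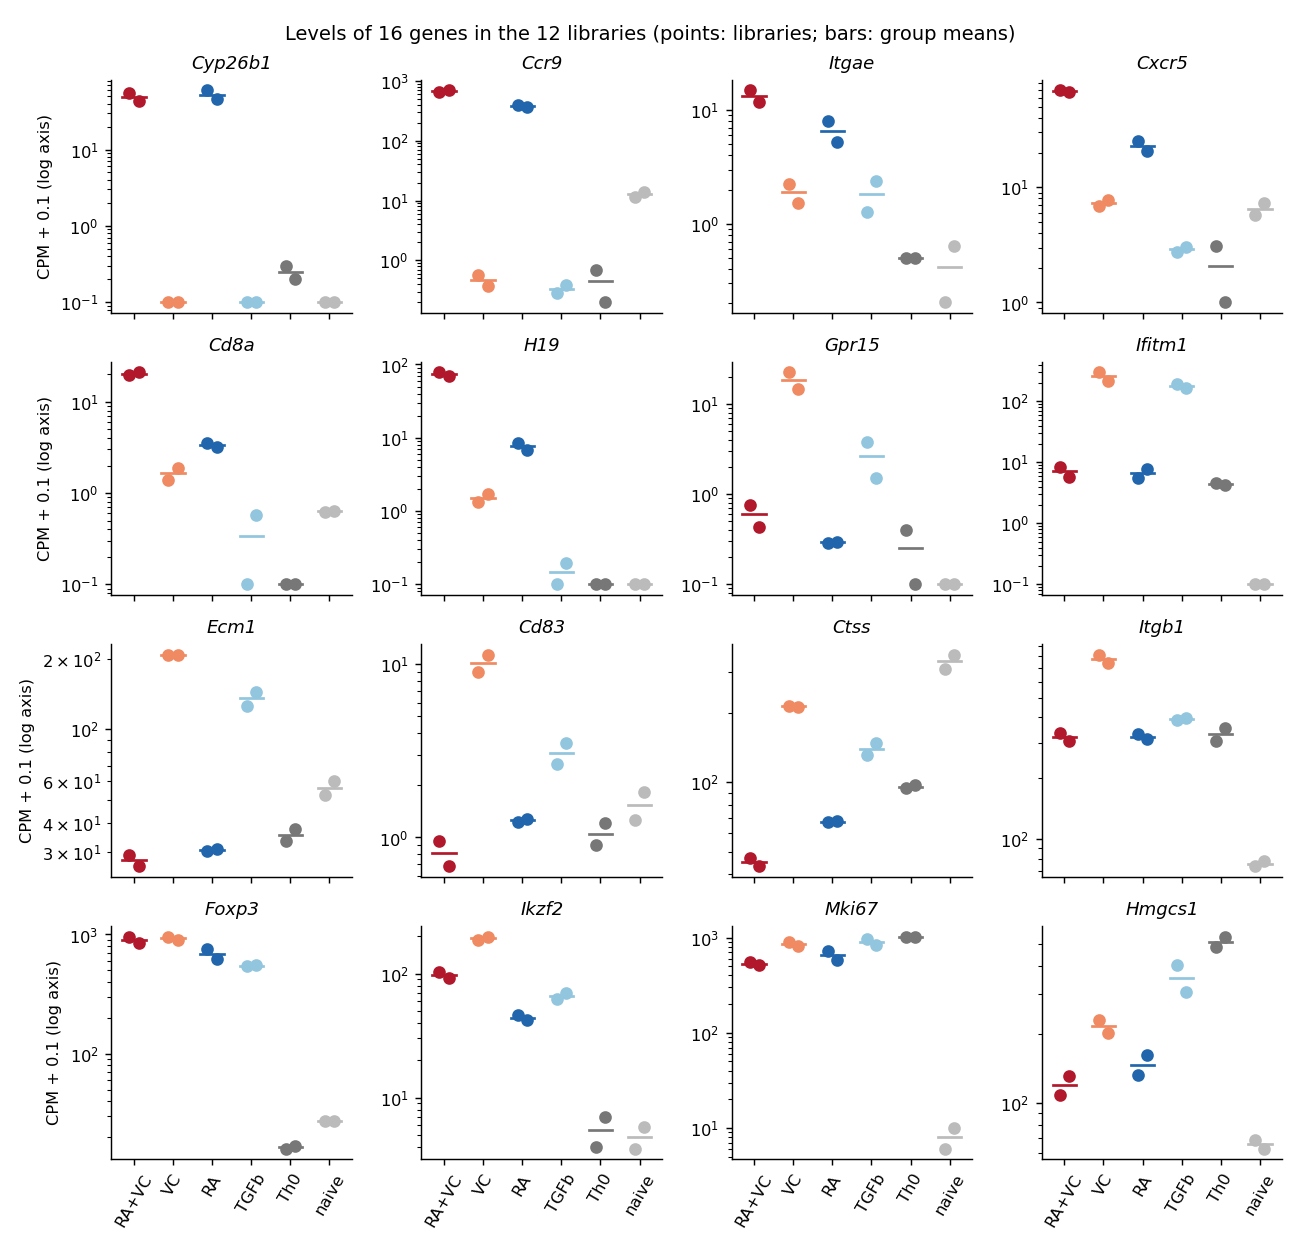
Levels of 16 genes, as CPM plus 0.1 on a log axis, in RA+VC, VC, RA, TGFb, Th0 and naive libraries; points are the 2 libraries of a group and bars their mean. Cyp26b1, Ccr9 and Itgae are high in both groups with retinoic acid, and Ifitm1 in both iTreg groups without it. Gpr15 is highest in VC cultures, with 3.73 and 1.42 CPM in TGFb cultures, and H19 and Cd8a are highest in RA+VC cultures.

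Receptors for other sites moved both ways. Cxcr5, the receptor for the B cell follicle chemokine, had 69.4 and 66.8 CPM in RA+VC cultures and 6.79 and 7.65 CPM in VC cultures (3.23 ± 0.20, adjusted p = 5.94e-08, edgeR). Fut7 and Fut4, fucosyltransferases that build selectin ligands, fell: Fut7 had 8.94 and 10.9 CPM in RA+VC cultures against 69.5 and 59.9 CPM in VC cultures (-2.70 ± 0.17, adjusted p = 4.74e-08, edgeR), and Fut4 fell by 1.81 ± 0.16. Such ligands serve homing to skin and inflamed sites. S1pr1, the exit receptor, had 154 and 141 CPM in RA+VC cultures and 330 and 313 CPM in VC cultures (-1.13 ± 0.08, adjusted p = 1.81e-07, edgeR), while Ccr7, which guides entry into lymph nodes, rose by 0.39 ± 0.08. Ccr2, a receptor for inflammatory sites, fell by 2.56 ± 0.40, or -1.93 without VC replicate 1. Of 21 such receptors tested, 4 rose, 10 fell and 7 did not pass. The counts were 3 and 6 without RA+VC replicate 2, 2 and 6 without VC replicate 1, 2 and 8 without RA+VC replicate 1, and 2 and 11 without VC replicate 2.

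For 3 of these genes the 250 bases before the transcription start are shown, because Ccr9 and Cyp26b1 were abundant with retinoic acid and near or at 0 in iTreg cultures without it, and Ctss had, as described below, a fall that differed with vitamin C. They are RefSeq sequences on GRCm38.p6, a later build than the mm9 of the counts. Capitals mark RAR half-sites (the letters AGGTCA or AGTTCA, and also GGGTCA or GGTTCA), searched on both strands. Ccr9 lies at chr9:123766961-123767210 on the plus strand, Cyp26b1 at chr6:84593811-84594060 on the minus strand, and Ctss at chr3:95526536-95526785 on the plus strand.
Ccr9: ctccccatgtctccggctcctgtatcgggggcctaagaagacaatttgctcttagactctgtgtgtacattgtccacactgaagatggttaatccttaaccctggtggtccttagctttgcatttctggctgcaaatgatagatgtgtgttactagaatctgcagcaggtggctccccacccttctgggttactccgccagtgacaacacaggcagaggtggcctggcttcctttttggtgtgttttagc
Cyp26b1: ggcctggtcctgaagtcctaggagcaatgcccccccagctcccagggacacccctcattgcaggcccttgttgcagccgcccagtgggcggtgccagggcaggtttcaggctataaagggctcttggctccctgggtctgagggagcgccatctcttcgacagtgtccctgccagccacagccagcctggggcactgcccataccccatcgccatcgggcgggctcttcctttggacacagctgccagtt
Ctss: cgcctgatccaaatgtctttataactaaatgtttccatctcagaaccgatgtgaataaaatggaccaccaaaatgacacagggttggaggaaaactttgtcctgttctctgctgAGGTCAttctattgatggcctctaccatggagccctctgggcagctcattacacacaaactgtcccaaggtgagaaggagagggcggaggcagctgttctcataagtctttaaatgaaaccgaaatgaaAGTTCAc

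The windows of Ccr9 and Cyp26b1 held none of these letters, which says nothing about the receptor elsewhere in the genes. That of Ctss held AGGTCA from 136 to 131 bases and AGTTCA from 7 to 2 bases before the start, both on the strand of the gene. They thus formed no direct repeat spaced by 5, 2 or 1 bases, the arrangement that RAR with RXR binds. Such repeats occurred in 0.088%, 0.17% and 0.16% of the windows, and binding was not tested. Any of the 4 half-sites occurred in 38.6% of the 32851 promoter windows in the table, AGGTCA in 14.0% and AGTTCA in 11.8%. The GC content was 50.4% for Ccr9, 64.8% for Cyp26b1 and 44.8% for Ctss. A comparison of called with other genes is void, because 78.4% of the called genes had a promoter in the table, under the 80% required.

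Foxp3 itself did not pass. It had 960 and 846 CPM in RA+VC cultures and 959 and 893 CPM in VC cultures, overlapping ranges (-0.04 ± 0.09, adjusted p = 0.856, edgeR). RA cultures had 750 and 620 CPM, TGFb cultures 539 and 558 CPM, Th0 cells 15.9 and 16.6 CPM and naive cells 27.1 and 27.3 CPM. Without vitamin C the retinoic acid difference was called (0.32 ± 0.09, adjusted p = 0.0262, edgeR), and the difference between the 2 effects did not pass (-0.36, adjusted p = 0.766). Il2ra, the IL-2 receptor chain CD25 (0.03 ± 0.08), Ctla4, an inhibitory receptor (0.30 ± 0.15), and Ikzf4, the factor Eos (-0.12 ± 0.18), did not pass either.

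Of 33 core Treg genes tested, 3 rose, 15 fell and 15 did not pass. By DESeq2 4 rose and 16 fell, and in the fit of the 8 iTreg libraries 5 rose and 15 fell. With the replicate block, and in the fit of the 4 compared libraries, 6 rose and 16 fell. Ikzf2, the factor Helios, had 103 and 91.4 CPM in RA+VC cultures and 187 and 199 CPM in VC cultures (-0.99 ± 0.13, adjusted p = 7.15e-05, edgeR). Its level in RA+VC cultures was nonetheless above the 62.7 and 69.9 CPM of TGFb cultures. Tnfrsf4, the costimulatory receptor OX40, had 123 and 136 CPM in RA+VC cultures and 315 and 308 CPM in VC cultures (-1.27 ± 0.13, adjusted p = 6.55e-06, edgeR). Cd83, a surface protein of activated cells, had 0.856 and 0.581 CPM against 8.94 and 11.3 CPM (-3.81 ± 0.31, adjusted p = 7.23e-07, edgeR). Entpd1, the ATP-consuming enzyme CD39, fell by 0.90 ± 0.13, Icos, a costimulatory receptor, by 0.64 ± 0.11, and Runx3, a transcription factor, by 0.66 ± 0.08. The members that rose were Itgae, Runx1, a factor that works with Foxp3 (0.65 ± 0.12), and Gpr83, a receptor enriched in Treg cells (1.08 ± 0.21). Gpr83 missed the threshold without RA+VC replicate 2 (adjusted p = 0.0533, edgeR). The rising count was then 2 and the falling count 12.

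Nrp1, a receptor that marks thymic Treg cells, was called in opposite directions in the 2 media. It had 199 and 154 CPM in RA+VC cultures and 249 and 228 CPM in VC cultures (-0.44 ± 0.13, adjusted p = 0.0349, edgeR), and 139 and 107 CPM in RA cultures against 85.2 and 96.9 CPM in TGFb cultures (0.43 ± 0.14, adjusted p = 0.0395, edgeR). The test of the difference itself did not pass (-0.87, adjusted p = 0.166). The fall with vitamin C had an adjusted p of 0.3 without RA+VC replicate 2, 0.22 without VC replicate 1 and 0.0514 without VC replicate 2.

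Effector genes of Treg cells also leaned down, with 1 of 15 tested higher, 8 lower and 6 not passing. The higher one, Cxcr3, a chemokine receptor of Th1-type cells, had 4.28 and 2.07 CPM in RA+VC cultures and 1.40 and 1.08 CPM in VC cultures (1.33 ± 0.42, adjusted p = 0.0452, edgeR), and missed the threshold by DESeq2 (adjusted p = 0.239) and without any library but RA+VC replicate 2 (0.138 to 0.415). Maf, a transcription factor of effector Treg and T helper cells, fell to 10.4 and 5.97 CPM in RA+VC cultures against 33.0 and 18.6 CPM in VC cultures (-1.67 ± 0.31, adjusted p = 0.00312, edgeR). It was low in RA cultures (4.88 and 2.96 CPM) and TGFb cultures (5.74 and 3.23 CPM), so VC cultures were its highest group. Batf, a partner factor of IRF4, fell by 1.14 ± 0.13. Prdm1, the factor BLIMP-1, fell by 1.37 ± 0.29 (adjusted p = 0.0053, edgeR), with adjusted p of 0.057 without RA+VC replicate 2 and 0.0673 without VC replicate 1. The list counts were 0 higher and 5 lower without VC replicate 1, 0 and 9 without either RA+VC replicate 1 or VC replicate 2, and 1 and 6 without RA+VC replicate 2.

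**Figure D3:**
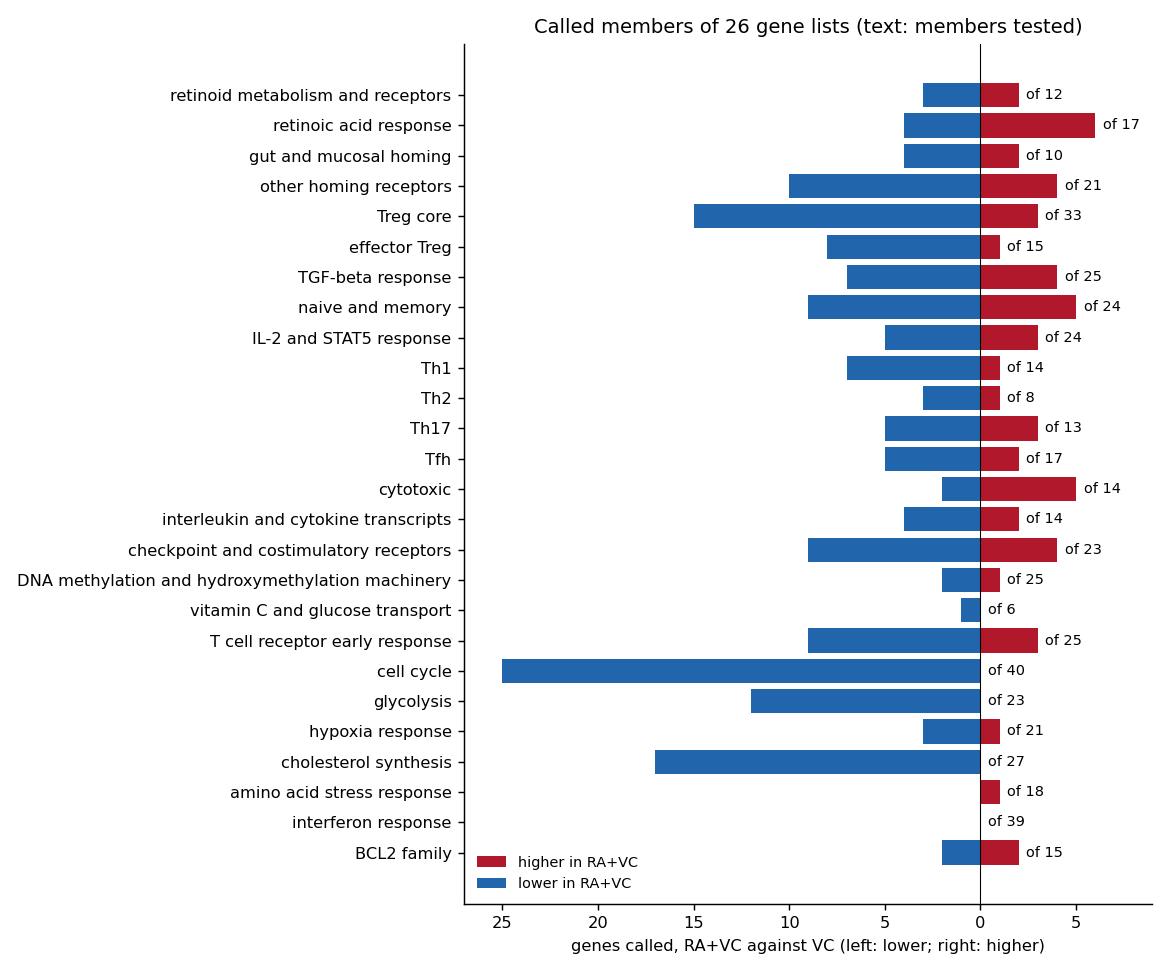
Bars give the number of called genes in each of 26 gene lists, lower in RA+VC than in VC cultures to the left and higher to the right, and the text gives the number tested. The cell cycle list has 25 of 40 lower and 0 higher, and the interferon list 0 of 39 in either direction.

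Among helper T cell genes, receptor chains for IL-18 and IL-12 were among those that fell. Il18r1, an IL-18 receptor chain, had 26.2 and 21.2 CPM in RA+VC cultures and 99.97 and 115 CPM in VC cultures (-2.18 ± 0.15, adjusted p = 1.11e-07, edgeR), and Il12rb2, the IL-12 receptor chain of Th1 cells, fell by 1.95 ± 0.31. Of 14 Th1 genes tested, 1 rose (Cxcr3), 7 fell and 6 did not pass. Ccl5, a chemokine, had 0 counts in RA+VC cultures and 35 in VC cultures, at least 12.0-fold lower with 3 counts over the RA+VC group as the floor. Gata3, the Th2 factor, fell by 0.42 ± 0.09 (adjusted p = 0.00474, edgeR; 0.0796 without VC replicate 1), and Bcl6, the follicular helper factor, did not pass (0.02 ± 0.16). Effector cytokines were almost absent: in the RA+VC and VC libraries Il10, Il4, Il2 and Il17a had 0 counts and Ifng at most 1. Tbx21, the Th1 factor, was below the filter with 6 and 4 counts in RA+VC cultures and 4 and 3 in VC cultures.

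Of 7 thymocyte markers tested, Cd8a, Dntt and Cd24a rose and 4 did not pass. Cd8a had 19.5 and 20.8 CPM in RA+VC cultures and 1.30 and 1.80 CPM in VC cultures (3.69 ± 0.30, adjusted p = 1.17e-06, edgeR), while its neighbour Cd8b1, the second chain of the CD8 dimer of cytotoxic T cells, did not pass (19.1 and 19.8 CPM against 21.7 and 25.7 CPM, -0.28 ± 0.12, adjusted p = 0.156, edgeR). Dntt, the enzyme that adds bases at antigen receptor joints in thymocytes, had 24.7 and 29.1 CPM against 4.37 and 5.22 CPM (2.49 ± 0.16, adjusted p = 8.63e-08, edgeR). Cd24a, a surface protein of immature T cells, had 213 and 216 CPM against 33.3 and 46.0 CPM (2.43 ± 0.21, adjusted p = 1.43e-05, edgeR). In all 3 the RA+VC libraries were above every other library. The 11 listed thymocyte markers summed to 787 and 747 CPM in RA+VC cultures and 554 and 526 CPM in VC cultures. VC cultures were the lowest of the 6 groups in this sum. It was 835 and 756 CPM in RA cultures, 766 and 683 CPM in TGFb cultures and 902 and 934 CPM in Th0 cells. Naive cells had 1633 and 1648 CPM. These sums include Cd8a, Dntt and Cd24a. The 7 CD8 T cell markers summed to 38.8 and 40.8 CPM in RA+VC cultures and 23.7 and 28.0 CPM in VC cultures. Gzmk, Klrc1 and Klrc2 were at 0 in these libraries. Of that sum Cd8a had 19.5 and 20.8 CPM against 1.30 and 1.80 CPM. Among the 4 markers of this list that were tested, only Cd8a rose, 0 fell and 3 did not pass, with a median of -0.16. The part of such cells in these results was not tested.

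Nkg7, a protein of cytotoxic granules, had 12.3 and 10.3 CPM in RA+VC cultures and 1.02 and 1.26 CPM in VC cultures (3.29 ± 0.27, adjusted p = 7.46e-07, edgeR). Ctsw, a protease of cytotoxic cells, rose by 1.53 ± 0.14 and Cd96, a receptor of T and NK cells, by 0.96 ± 0.08. Of 14 cytotoxic genes tested, 5 rose, 2 fell and 7 did not pass, and the rising count was 3 without RA+VC replicate 2 or either VC replicate. The 13 NK and innate lymphoid markers summed to 70.0 and 72.0 CPM in RA+VC cultures and 178 and 152 CPM in VC cultures. Of that sum Id2, a factor also expressed by T cells, had 52.9 and 57.4 CPM against 170 and 144 CPM. Among the 4 markers of this list that were tested, 3 rose and only Id2 fell.

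Epcam and Cdh1, adhesion molecules best known from epithelium, also rose. Epcam had 11.5 and 9.21 CPM in RA+VC cultures and 0.838 and 1.35 CPM in VC cultures (3.22 ± 0.27, adjusted p = 8.3e-07, edgeR). Cdh1, E-cadherin, the ligand of CD103, had 25.4 and 30.9 CPM against 4.65 and 8.92 CPM (2.05 ± 0.24, adjusted p = 2.48e-05, edgeR). Both were above their levels in every other library.

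Among the 15 largest rises were the neighbouring genes H19 and Igf2. H19, an imprinted noncoding RNA, had 77.8 and 70.2 CPM in RA+VC cultures and 1.21 and 1.62 CPM in VC cultures (5.69 ± 0.20, adjusted p = 1.72e-09, edgeR). Igf2, the growth factor gene beside it on chromosome 7, had 21.3 and 28.3 CPM against 1.02 and 1.98 CPM (4.03 ± 0.37, adjusted p = 8.81e-06, edgeR). Retinoic acid raised both without vitamin C too. H19 had 8.34 and 6.72 CPM in RA cultures against 0 and 0.0949 CPM in TGFb cultures (adjusted p = 1.32e-06, edgeR), and Igf2 had 1.69 and 1.88 CPM against 0.273 and 0 CPM (adjusted p = 0.0139, edgeR). The TGFb libraries held too few reads of either gene for a fold, and neither difference of effects passed (adjusted p = 1 each, edgeR). Enpp5 and Enpp4, neighbours on chromosome 17, which code for membrane phosphodiesterases, rose by 3.73 ± 0.24 and 2.68 ± 0.20. Lztfl1, the neighbour of Ccr9 on chromosome 9, rose by 1.86 ± 0.11, with 71.0 and 69.8 CPM in RA+VC cultures and 19 and 19.7 CPM in VC cultures. Enpp4 and Lztfl1 were looked at because they are neighbours, and adjacency was not tested. No protein-coding gene lies between the members of these pairs in the RefSeq table, and their bodies do not overlap. The remaining large rises included Slc16a5, a transporter of monocarboxylates (5.70 ± 0.37), Plac8 (4.35 ± 0.59), Rab20, a vesicle GTPase (3.20 ± 0.28), and Fbln2, a matrix protein (3.28 ± 0.37, or 4.31 without VC replicate 2).

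Ifitm1, an interferon-inducible membrane protein, had 8.37 and 5.73 CPM in RA+VC cultures and 298 and 216 CPM in VC cultures (-5.20 ± 0.21, adjusted p = 1.91e-08, edgeR). Ifitm6 of the same family and chromosome fell by 5.19 ± 0.28, or -6.07 without RA+VC replicate 2. Lmna, which codes for lamins A and C, had 0.19 and 0.581 CPM against 17.5 and 13.1 CPM (-5.22 ± 0.38, adjusted p = 2.77e-07, edgeR), and -6.25 without RA+VC replicate 2. Acsl6, which activates long-chain fatty acids, had 0.476 and 0.498 CPM against 16.8 and 13.5 CPM (-4.93 ± 0.36, adjusted p = 5.22e-07, edgeR). Lgals3, galectin-3 (-3.99 ± 0.46), Rassf4, a Ras-binding protein (-4.05 ± 0.30), Amica1, an adhesion molecule of leukocytes (-3.88 ± 0.30), Lad1 (-3.81 ± 0.34) and Crem, a factor of the cyclic AMP response (-2.46 ± 0.14), fell as well. Nacc2, a transcriptional repressor, had a change of -5.28 ± 0.49, which was -6.13 without RA+VC replicate 1 and -4.69 without RA+VC replicate 2.

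Hbb-b1, a beta globin gene with a near-identical copy, had 0.856 and 0.83 CPM in RA+VC cultures and 25.6 and 16.8 CPM in VC cultures (-4.63 ± 0.49, adjusted p = 0.00016, edgeR). The other tested globin gene, Hba-a2, had 7.33 and 13.6 CPM against 41.8 and 30.3 CPM (-1.77 ± 0.43, adjusted p = 0.0284, edgeR). Its adjusted p was 0.0697 with no filter, 0.0773 with the replicate block and 0.0647 to 0.2 with each of the 4 libraries left out. The 9 erythroid and platelet markers summed to 8.66 and 15.9 CPM in RA+VC cultures and 68.2 and 48.1 CPM in VC cultures, with TGFb cultures at 179 and 130 CPM and naive cells at 1.47 and 2.69 CPM. Pf4, which defines platelets, was at 0 in all 4 libraries. The 22 myeloid and dendritic markers summed to 89.9 and 93.5 CPM in RA+VC cultures and 125 and 114 CPM in VC cultures, and 14 were at 0. Of the 7 such markers tested, 1 rose, 2 fell and 4 did not pass, with a list median of 0. Itgam, an integrin chain of myeloid and some T cells, fell to 0.476 and 0.664 CPM in RA+VC cultures against 4.93 and 3.96 CPM in VC cultures (-2.92 ± 0.39, adjusted p = 8.41e-05, edgeR). The marker that rose was Fcer1g (2.68, adjusted p = 0.0246, edgeR), which missed the threshold by DESeq2 (adjusted p = 0.237). The 15 B cell markers summed to 14.3 and 18.0 CPM in RA+VC cultures and 8.94 and 5.67 CPM in VC cultures, and 9 of them were at 0. Of the 3 B cell markers tested, 2 rose, 0 fell and 1 did not pass, with a list median of 1.18. Those that rose were Cd79b (1.18, adjusted p = 0.00336, edgeR) and Bank1 (1.15, adjusted p = 0.0328, edgeR). Bank1 missed the threshold by DESeq2 (adjusted p = 0.228). The part of other cell types in the results was not tested.

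TGFb signalling genes moved in both directions. Id1 and Id2, inhibitors of DNA-binding factors, fell: Id1 had 3.42 and 4.56 CPM in RA+VC cultures and 20.4 and 17.8 CPM in VC cultures (-2.24 ± 0.21, adjusted p = 3.34e-06, edgeR), and Id2 fell by 1.51 ± 0.12. Cdkn1a, the cell cycle inhibitor p21, fell by 1.91 ± 0.17, and the receptor gene Tgfbr1 rose by 0.69 ± 0.08. Of 25 tested genes, 4 rose, 7 fell and 14 did not pass. The rising count was 2 without RA+VC replicate 1, VC replicate 1 or VC replicate 2.

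Naive and memory genes showed no common direction, with 5 of 24 higher, 9 lower and 10 not passing. Il6ra, an IL-6 receptor chain, had 83.3 and 59.7 CPM in RA+VC cultures and 213 and 191 CPM in VC cultures (-1.5 ± 0.16, adjusted p = 2.86e-05, edgeR). Dapl1 fell by 2.31 ± 0.26, Il7r, the IL-7 receptor chain, by 1.12 ± 0.19, and Cd44, a marker of activated cells, by 0.65 ± 0.10. Actn1, an actin crosslinker, rose by 0.99 ± 0.14. The rising count was 3 without RA+VC replicate 2 or VC replicate 1.

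Of 40 cell cycle genes tested, 25 fell, 0 rose and 15 did not pass, with a list median of -0.44 against 0.01 over all genes. No alternative fit, DESeq2 and limma among them, called a cell cycle gene higher. Mki67, the proliferation marker Ki-67, had 553 and 514 CPM in RA+VC cultures and 905 and 809 CPM in VC cultures (-0.69 ± 0.13, adjusted p = 0.00206, edgeR). Ccne1, cyclin E1, fell by 0.84 ± 0.10 and Rrm2, a subunit that makes DNA precursors, by 0.65 ± 0.09. The replication genes Mcm2 (-0.01 ± 0.08) and Pcna (-0.24 ± 0.10) did not pass. The falling count was 6 without VC replicate 1 and 10 without RA+VC replicate 2.

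Of 23 glycolysis genes 12 fell, 0 rose and 11 did not pass (median -0.45). Pkm, pyruvate kinase, fell by 0.78 ± 0.12 and Eno3, an enolase, by 1.22 ± 0.16, with 16.1 and 19.3 CPM in RA+VC cultures and 39.5 and 43.0 CPM in VC cultures. The falling count was 3 without RA+VC replicate 2, 4 without VC replicate 1 and 6 without RA+VC replicate 1. Of 27 sterol and lipid synthesis genes 17 fell, 0 rose and 10 did not pass (median -0.48). Scd2, a fatty acid desaturase, had 296 and 298 CPM in RA+VC cultures and 840 and 645 CPM in VC cultures (-1.32 ± 0.20, adjusted p = 0.00218, edgeR). Hmgcs1, an early enzyme of cholesterol synthesis, fell by 0.85 ± 0.14, while Srebf2, a main activator of the pathway, did not pass (0.01 ± 0.10). The falling count was 9 without VC replicate 1 and 11 without RA+VC replicate 1. In RA against TGFb cultures, 35 cell cycle, 16 glycolysis and 25 sterol genes were lower, with medians of -0.53, -0.65 and -0.92, and no member of these lists differed in effect between the 2 media by the interaction test.

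**Figure D4:**
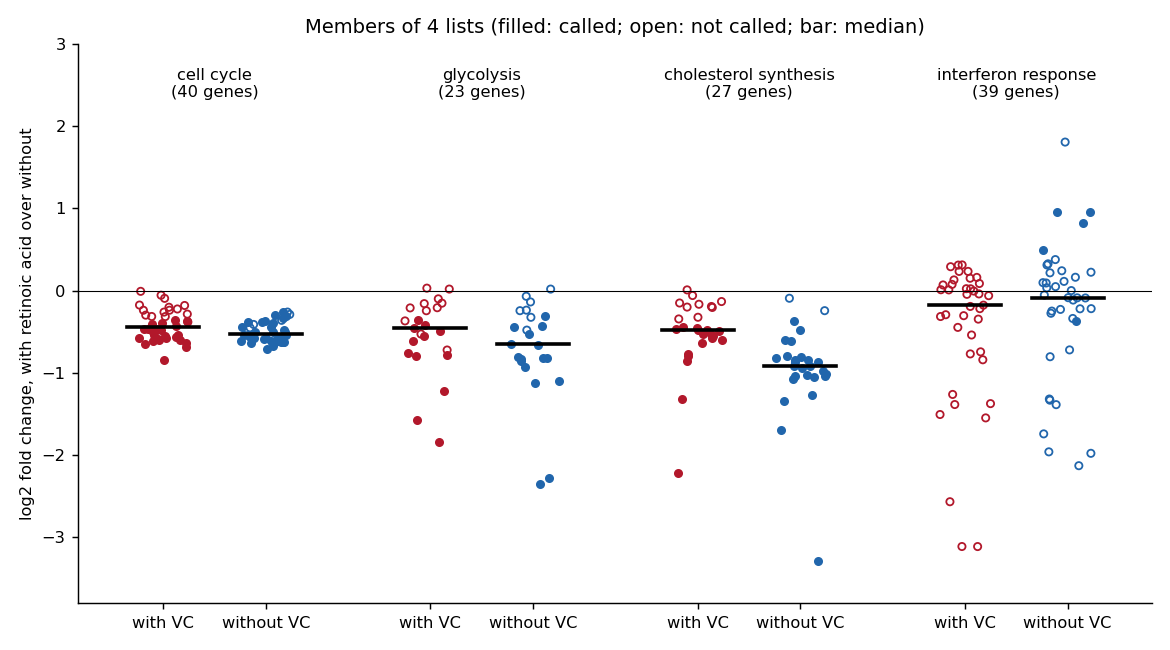
Points are the log2 fold changes of list members with retinoic acid over without, in cultures with vitamin C (RA+VC over VC) and without it (RA over TGFb); filled points are called and bars are medians. Cell cycle, glycolysis and cholesterol genes have medians of -0.44, -0.45 and -0.48 with vitamin C, and the interferon list has no called member there.

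Of 25 early T cell receptor response genes 3 rose, 9 fell and 13 did not pass; Fosl2, an AP-1 factor, fell by 1.59 ± 0.24 and Egr2, a factor of tolerance, rose by 2.14 ± 0.40. The falling count was 3 without VC replicate 1 and 4 without RA+VC replicate 2. Of 23 checkpoint and costimulatory receptors 4 rose, 9 fell and 10 did not pass, and Tnfrsf18, the receptor GITR, had 229 and 280 CPM in RA+VC cultures and 408 and 435 CPM in VC cultures (-0.73 ± 0.15, adjusted p = 0.00495, edgeR; 0.055 without RA+VC replicate 1). Of 24 IL-2 and STAT5 response genes 3 rose and 5 fell, and 1 rose without either RA+VC replicate. Of 21 hypoxia genes 1 rose and 3 fell, a share near the 15.1% called among all genes. For this list 7 were lower in the fit of the 8 iTreg libraries and 9 in that of the 4 compared libraries. Beside that 15.1%, the shares called were 48% for T cell receptor response and 56.5% for checkpoint receptors. They were 33.3% for the IL-2 and STAT5 list, 26.7% for the BCL2 family and 5.56% for amino acid stress. Of 15 BCL2 family genes 2 rose and 2 fell, and 0 were called without RA+VC replicate 2. Of 18 amino acid stress genes 1 rose and 0 fell, and 0 were called without any 1 of the 4 libraries.

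Of 25 genes of the DNA methylation machinery tested, 1 rose, 2 fell and 22 did not pass, near the 15.1% called among all genes. With the replicate block 1 rose and 5 fell. Uhrf1, which guides maintenance methylation, had 193 and 175 CPM in RA+VC cultures and 274 and 260 CPM in VC cultures (-0.54 ± 0.08, adjusted p = 0.000441, edgeR). Tet1 (0.29 ± 0.22), Tet2 (-0.25 ± 0.16), Tet3 (0.23 ± 0.15), Dnmt1 (-0.25 ± 0.11) and Dnmt3a (-0.28 ± 0.10) did not pass, nor did the vitamin C transporter gene Slc23a2 (0.07 ± 0.11). Dnmt3b, a de novo methyltransferase, was called at 0.58 ± 0.15 (adjusted p = 0.0136, edgeR), with adjusted p between 0.0605 and 0.119 without RA+VC replicate 2, VC replicate 1 or VC replicate 2. Of the 39 interferon response genes tested 0 were called by edgeR, beside 15.1% of all genes, and 1 was lower by DESeq2. In the fits of the 8 iTreg libraries or the 4 compared libraries 3 were lower.

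The same retinoic acid question could be asked without vitamin C. Between RA and TGFb cultures 1860 of 11287 genes were called (16.5%), 811 higher (7.19%) and 1049 lower (9.29%). The genes called in both media numbered 1096, which is 64.2% of those called with vitamin C and 58.9% of those called without it, and 1095 of them had the same direction. The 2 comparisons share no library. Of the 656 genes that rose with vitamin C, 644 had a positive value without it, and of the 1050 that fell, 1018 had a negative value. Median changes of the genes called with vitamin C were 0.57 and -0.73 there, and 0.51 and -0.59 without it, where they were not chosen for being called. The 610 genes called with vitamin C alone and the 764 called without it alone held none whose 2 effects differed by the interaction test.

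**Figure D5:**
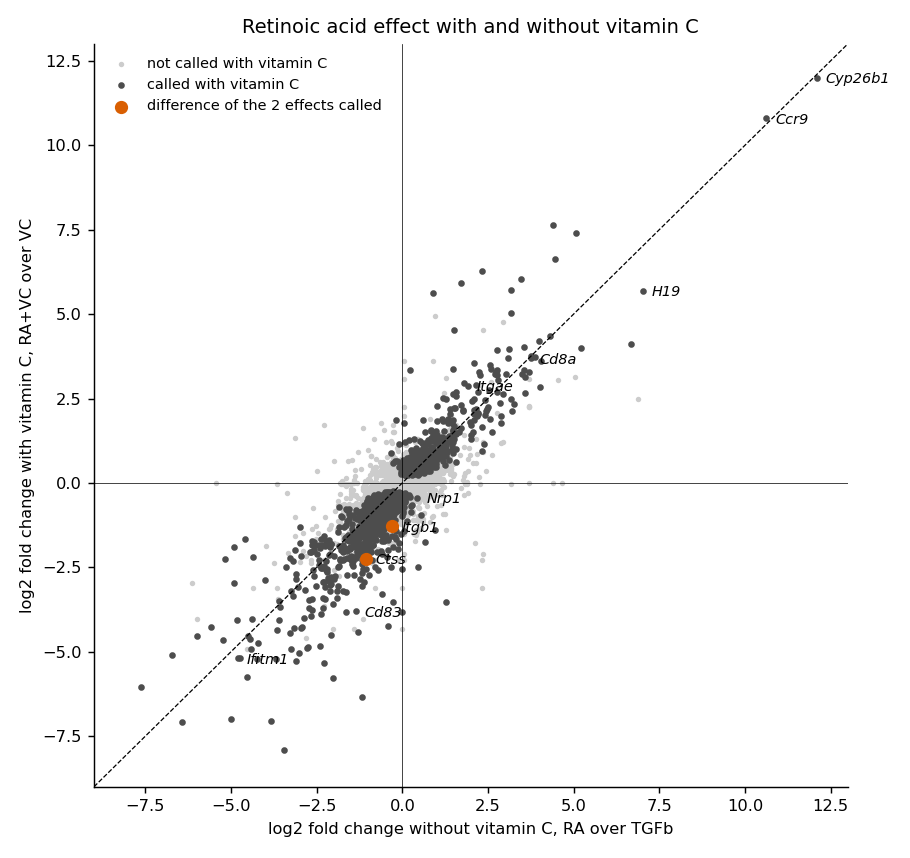
Each point is a tested gene, with the log2 fold change of RA over TGFb cultures on the x axis and of RA+VC over VC cultures on the y axis; the dashed line marks equal effects. Most called genes lie along the line, and Ctss and Itgb1, in orange, are the genes whose difference of effects was called.

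The difference of effects was called for 2 genes (0.0177% of those tested), Ctss and Itgb1, both with a larger fall in the presence of vitamin C. Ctss, the lysosomal protease cathepsin S, had 47.0 and 43.1 CPM in RA+VC cultures and 214 and 212 CPM in VC cultures (-2.24 ± 0.10), and 67.3 and 67.6 CPM in RA cultures against 131 and 148 CPM in TGFb cultures (-1.05 ± 0.10). The groups with retinoic acid were thus below those without it in both media, and the RA+VC libraries were the lowest of all 12. The difference was -1.20 (adjusted p = 0.00314, edgeR). Itgb1, which codes for the integrin beta 1 chain that binds matrix and VCAM-1, had 336 and 304 CPM in RA+VC cultures and 815 and 740 CPM in VC cultures (-1.28 ± 0.09), and 329 and 311 CPM in RA cultures against 389 and 396 CPM in TGFb cultures (-0.29 ± 0.09). Its 4 libraries with retinoic acid lay between 304 and 336 CPM, and VC cultures were its highest group. The difference was -0.99 (adjusted p = 0.00649, edgeR), and its adjusted p was 0.0569 without RA+VC replicate 2, 0.0638 without VC replicate 1 and 0.0727 without TGFb replicate 1.

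A few genes were high in VC cultures and low in the other 3 kinds of iTreg culture, but did not pass the interaction test. Kcnj15, a potassium channel gene, had 0.285 and 1.24 CPM in RA+VC cultures and 11.8 and 18.3 CPM in VC cultures (-4.23 ± 0.40, adjusted p = 2.95e-06, edgeR), against 0.375 and 0.0988 CPM in RA cultures and 0.273 and 0.38 CPM in TGFb cultures. Its change was -5.67 without RA+VC replicate 2 and -3.58 without RA+VC replicate 1, and its interaction had an adjusted p of 0.7. Popdc2, chosen after its values were seen, had 1.33 and 1.49 CPM in RA+VC cultures and 18.2 and 14.6 CPM in VC cultures (-3.52 ± 0.27, adjusted p = 6.46e-07, edgeR), with an interaction adjusted p of 0.217.

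Across all 12 libraries, 228 of the 656 genes that rose had both RA+VC libraries above the other 10, and 132 of the 1050 that fell had both below them. Over all tested genes these numbers were 557 and 337. In a principal component analysis the first component, with 63.1% of the variance, set naive cells apart from all cultures. On the second, with 20.2%, RA+VC libraries scored -44.2 and -41.6 and VC libraries -18.3 and -21.6. RA libraries scored -18.1 and -11.0 there, and TGFb libraries 15.6 and 12.4. On the third, with 8.08%, RA+VC libraries scored 17.9 and 20.0 and RA libraries 23.8 and 25.6. VC libraries scored -36.7 and -30.6 and TGFb libraries -19.2 and -13.2, so the third component parted the iTreg cultures by retinoic acid. Th0 libraries, without retinoic acid, scored 14.3 and 9.92 on it.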

How the data were processed

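mRNA libraries were made with RNeasy Plus kits and a TruSeq stranded mRNA kit, per the labels' protocols. Per the submitters' processing notes, the tools included Trim Galore 0.4.2, TopHat2 2.1.1 and edgeR 3.26.6 with build mm9; the counting tool, its strand setting and the annotation release are not given in the sources used here. The deposited counts are whole reads over exons of 21761 genes, 92 without a symbol. The deposited FPKM values equal count over library total and exon length. 8 columns of other samples in the count table were not used.

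The 12 libraries of 6 groups were fitted together in R 4.3.3 with edgeR 4.0.16 (TMM, filterByExpr, robust quasi-likelihood, 2-sided, 6 residual degrees of freedom, Benjamini-Hochberg over 11287 genes), with no replicate block. SE is the log2 fold change over the square root of F. CPM uses TMM-scaled totals. Bounds use 3 counts over a group and cover counting error only. Alternatives were DESeq2 1.42.0, limma 3.58.1 on log2 of FPKM plus 1, RLE factors, no filter, a required log2 change of 1, fewer libraries, a replicate block and leaving out each library. The fit was tested on simulated data.

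Members, lists and the naming rule were chosen with earlier results of these data known. The rule named followed genes, the 15 largest changes each way (mean of 5 CPM or more), 4 called genes of a list by size at most, and the 8 largest interaction values among called genes. Outside it, chosen after their values were seen, are Cxcr3, Ecm1, Lztfl1, Enpp4, Cd8b1, Popdc2, Cdh1, Fabp5, Cd38, P2rx7, Gpr183, Ccr7, Gpr83, Runx1, Runx3, Entpd1, Batf, Tgfbr1, Il7r, Actn1, Cd44, Ctsw, Crem, Cd96, Pcna, Mcm2, Pkm, Srebf2 and genes with values below the filter. Lists not described in the text appear in the plot of list counts. Genes without strand-specific counting stated cannot be told from antisense partners. Some genes that the rule or lists cover are not reported here.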

Additional observations from a re-analysis of the deposited data

Results flagged for a closer look

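Ctss had a retinoic acid effect with vitamin C minus that without of -1.20 on the log2 scale, drawing notice because the test of the difference between the 2 media passed (adjusted p = 0.00314, edgeR quasi-likelihood with Benjamini-Hochberg adjustment, 2 libraries per group). Itgb1 had a difference of -0.99 and was noticed for the same reason (adjusted p = 0.00649, edgeR). The Itgb1 difference lost its call without RA+VC replicate 2 (adjusted p = 0.0569, edgeR), VC replicate 1 (0.0638) or TGFb replicate 1 (0.0727), and the Ctss difference kept it without each library in turn (adjusted p up to 0.0367, edgeR). Groups of 2 libraries were too small to look for single libraries that stand apart.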

How the results depend on the processing

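None of the 161 genes followed across settings reversed direction while called in the main or the alternative fit (160 genes in the fits of 8 and of 4 libraries). A change of sign in a gene called in neither fit was not counted. Of the 1706 genes changed by retinoic acid with vitamin C, 231 remained when a log2 change over 1 was required. Leaving out each of the 4 libraries gave 819 to 1367, and DESeq2, limma, RLE factors, no filter and fewer libraries gave 1401 to 1760. For RA against TGFb cultures the count of 1860 became 136 with the required change, and 795 to 1898 with each library left out. The interaction count of 2 became 17 with DESeq2, 25 with no filter, 23 with limma, 26 with the replicate block, 0 with the required change, and 1 to 11 with each library left out. The 2 genes were in the first 4 of these sets. Called list members numbered 195, 36 with the required change and 114 to 169 with each library left out. The cause was not tested, except that the required change is stricter by its construction and leaving out a library lowers the number of samples. The replicate block gave 2274 genes with vitamin C. Same-numbered RA+VC and VC libraries deviated together (r = 0.294 across genes). Over the 6 pairs of iTreg groups r was 0.222 to 0.418, and over pairs with Th0 or naive cells 0.0133 to 0.0898. With 2 numbers and no label that ties them to an animal or day, this is a hint from the data and pairing was not assumed. Under the block Itga4 (adjusted p = 0.0024), Itgb7, Ctla4, Dnmt1 and Dnmt3a passed and Aldoa and Hba-a2 did not. With 2 libraries per group, differences under the spread between libraries were not detectable, and low counts limit genes such as Gpr15.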
